A study of Mus musculus with 3 samples.

Results

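Of the 10 genes of lecticans and hyaluronan metabolism chosen by name, 9 were among the 19381 genes listed for proximal incisor mesenchyme of DKO mice. They are the lecticans Vcan and Acan, the link proteins Hapln1 and Hapln3, the hyaluronan synthases Has2 and Has3, the hyaluronidases Hyal1 and Hyal2, and the receptor Cd44, while Has1 was not analysed here. The genes were chosen for their role and not for a measured value, although earlier results of these data were known at that point. RNA was sequenced in 3 libraries of 1 group of mice with the genotype Gli1-CreER;Arid1afl/fl;Arid1bfl/fl, in which tamoxifen (1.5 mg per 10 g body weight) activates a Cre recombinase made under the Gli1 promoter, so that the BAF chromatin remodeling subunits Arid1a and Arid1b are deleted only in cells that use this promoter and in their progeny. Mice were 1 month old, and tissue was taken 4 days after induction. Control mice were not analysed here, so no value below is an effect of the deletion. Nothing in the labels says that the 3 libraries came from separate animals, and every SD is therefore a spread between libraries that may be technical.

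Hyaluronan is a long unsulfated sugar chain that the Has enzymes, which sit in the cell membrane, build from UDP-sugars and extrude into the matrix. Lecticans are large proteoglycans whose amino-terminal domain holds hyaluronan and whose core protein carries chondroitin sulfate chains, and link proteins lock both together. The hydrated gel so formed fills loose mesenchyme such as the dental pulp (with versican, the product of Vcan) and cartilage (with aggrecan, the product of Acan). Cells hold hyaluronan through CD44, and hyaluronidases cut it at the cell surface (Hyal2) and in lysosomes (Hyal1).

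Values are normalized counts, meaning gene counts that the authors scaled to a shared upper quartile of 44.7. Totals were 986401, 958773 and 966163. Of the 19381 listed genes, 10388 had a mean of at least 10, so reaching this level is common. The mesenchymal marker list fixed for this tissue (Prrx1, Pdgfra, Msx1, Twist1, Igfbp5, Gli1, Tnc and Vim) had 8 of 8 genes at a mean of at least 10. Markers of dental epithelium did too (9 of 9), with a summed level of 833, 1305 and 964 in replicates 1, 2 and 3, so epithelial transcripts were present in every library. In bulk RNA, fewer cells of a type and less RNA per cell cannot be told apart.

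Versican and Hapln1 led the group, and both lie beside each other in the genome, as Acan and Hapln3 do. Hapln1 (chromosome 13, 89539796 to 89611652, plus strand, mm10) and Vcan (89655312 to 89742509, minus strand) face each other tail to tail across 43659 bases with no annotated gene between them. Acan (chromosome 7, 79053483 to 79115099, plus strand) and Hapln3 (79115102 to 79131018, minus strand) also converge, with 2 bases between their annotated ends and no shared exon. The start regions of these 4 genes are shown because each lectican and its neighbouring link gene had the same order of libraries by level. That was not particular to neighbours, since Has2 on chromosome 15 had the same order as Vcan and Hapln1. Has3 and Hyal1, on separate chromosomes, also shared an order. The start regions come from RefSeq (GRCm38.p6), run from 250 bases before to 50 bases after the RefSeq start, and are written 5′ to 3′ on the gene's strand. The RefSeq start can differ from the gene start given above. The region of Acan ends before that gene start (79053483), and the region of Hapln1 lies inside the gene that starts at 89539796. Capitals mark short promoter motifs, searched on either strand. The GC box, bound by Sp1 and its relatives, was searched as GGGCGG, and a pair of such boxes in Acan overlaps. The CCAAT box, bound by the factor NF-Y, was searched by the letters of its name. The TATA box, which the general transcription machinery binds, was searched as TATAAA.
Vcan (chr13:89742463-89742762, minus strand): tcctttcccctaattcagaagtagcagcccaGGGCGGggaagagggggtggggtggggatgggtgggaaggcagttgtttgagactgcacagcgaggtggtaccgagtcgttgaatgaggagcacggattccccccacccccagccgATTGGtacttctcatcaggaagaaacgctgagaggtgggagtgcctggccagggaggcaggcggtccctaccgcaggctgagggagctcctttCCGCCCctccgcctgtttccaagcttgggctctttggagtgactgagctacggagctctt
Hapln1 (chr13:89540386-89540685, plus strand): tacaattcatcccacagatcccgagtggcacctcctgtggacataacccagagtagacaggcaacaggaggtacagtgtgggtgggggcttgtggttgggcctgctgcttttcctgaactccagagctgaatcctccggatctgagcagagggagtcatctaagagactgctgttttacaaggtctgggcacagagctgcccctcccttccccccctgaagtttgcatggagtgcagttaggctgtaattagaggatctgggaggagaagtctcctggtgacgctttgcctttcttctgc
Acan (chr7:79052976-79053275, plus strand): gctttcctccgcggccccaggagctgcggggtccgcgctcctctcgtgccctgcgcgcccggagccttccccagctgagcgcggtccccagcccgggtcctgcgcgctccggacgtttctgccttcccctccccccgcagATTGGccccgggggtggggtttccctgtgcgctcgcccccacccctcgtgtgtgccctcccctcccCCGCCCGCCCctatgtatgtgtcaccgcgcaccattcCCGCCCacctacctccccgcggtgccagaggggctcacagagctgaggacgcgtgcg
Hapln3 (chr7:79130969-79131268, minus strand): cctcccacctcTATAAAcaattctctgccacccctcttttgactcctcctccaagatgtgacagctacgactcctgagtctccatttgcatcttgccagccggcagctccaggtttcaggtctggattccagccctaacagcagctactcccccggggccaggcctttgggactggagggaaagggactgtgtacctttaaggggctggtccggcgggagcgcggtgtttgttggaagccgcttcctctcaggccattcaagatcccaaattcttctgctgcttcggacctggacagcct

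The start regions of the lectican genes were richer in G and C than those of their link genes. GC content was 61.0% for Vcan and 54.3% for Hapln1, and 74.0% for Acan and 57.0% for Hapln3, against a median of 52.7% over 32851 RefSeq start regions of the same length. Acan held 31 CpG dinucleotides, Vcan 12, Hapln3 9 and Hapln1 3. A GC box was found in Vcan, Acan, Cd44, Hyal1 and Hyal2, 5 of the 7 measured genes with an entry, and in 35.7% of all start regions. A CCAAT box was found in Vcan, Acan and Hyal1 and in 37.4% of all regions, and TATAAA in Hapln3 and in 13.6%. Counted from the RefSeq start, the TATAAA of Hapln3 lay at -239 to -234, far upstream. The GC box of Cd44 lay at 3 to 8, after the start. Whether any of these motifs acts as a promoter element was not tested. Has2 and Has3 had no entry.

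**Figure D1:**
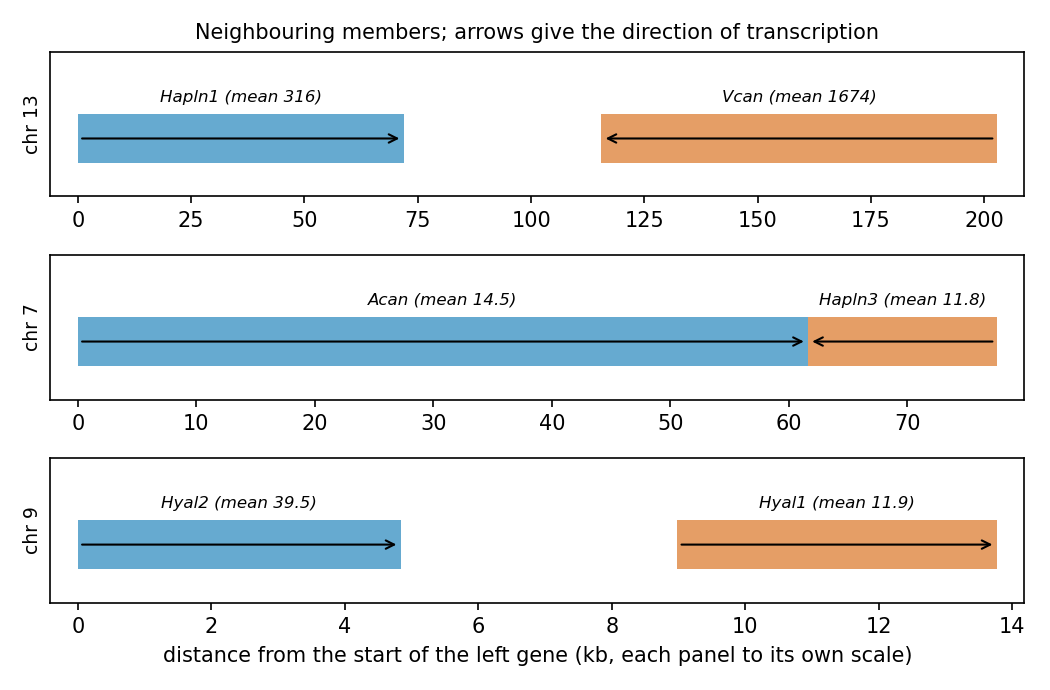
Map of the 3 pairs of neighbouring genes, with distance in kilobases from the start of the left gene on the x axis, each panel to its own scale, and the mean normalized count over 3 libraries in brackets. Arrows give the direction of transcription: Hapln1 with Vcan and Acan with Hapln3 converge, while Hyal2 and Hyal1 run the same way.

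Vcan was by far the more abundant lectican. Its normalized count was 1512, 1762 and 1747 in replicates 1, 2 and 3 (1674 ± 140.1, SD, n = 3), which placed it at percentile 99.9 of all listed genes. Replicate 1 was the lowest, and the highest library exceeded the lowest 1.17-fold. The gene has 9 annotated transcripts, 8 of them coding, which differ in whether they include the large exons for chondroitin sulfate attachment, and gene counts do not separate them. Acan, the lectican of cartilage, stood at 21.1, 12.1 and 10.3 (14.5 ± 5.76, SD, n = 3), or percentile 52.6. Here replicate 1 was the highest and the other libraries were close to each other.

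Division by exon length (14462 bases for Vcan and 7469 for Acan) leaves the gap between the lecticans wide. Per kilobase of exon, the level of Vcan was 104.6, 121.8 and 120.8, and that of Acan 2.82, 1.62 and 1.38. Vcan thus exceeded Acan 37.1-, 75.1- and 87.6-fold, and made up 98.3% ± 0.816 (SD, n = 3) of the summed per-kilobase level of both. The within-library difference of log2(level per kilobase + 1), Vcan minus Acan, was 5.34 ± 0.48 (SD, n = 3) and had the same sign in 3 of 3 libraries (exact two-sided sign-flip permutation test, p = 0.25, adjusted p = 0.25 over 4 such differences). With 3 libraries 0.25 is the smallest p this test can give.

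The link proteins followed the same split. Hapln1 was at 267, 363 and 317 normalized counts (316 ± 48.1, SD, n = 3), percentile 98.1 of all genes. Like Vcan it was lowest in replicate 1 and highest in replicate 2. Hapln3 was at 16.6, 9.62 and 9.27 (11.8 ± 4.14, SD, n = 3), and as for Acan replicate 1 stood above the other libraries. Per kilobase of exon, Hapln1 exceeded Hapln3 9.58-, 22.5- and 20.4-fold. The within-library log2 difference, Hapln1 minus Hapln3, was 3.66 ± 0.57 (SD, n = 3), in the same direction in 3 of 3 libraries (exact sign-flip permutation test, p = 0.25, adjusted p = 0.25).

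For the neighbours Acan and Hapln3, the ratio of link gene to lectican varied less than the value of either gene. For Vcan and Hapln1 the ratio varied less than Hapln1 but about as much as Vcan. Hapln3 over Acan was 0.788, 0.794 and 0.900 in normalized counts, a coefficient of variation of 7.64%, while the coefficient was 39.8% for Acan and 35.0% for Hapln3. Hapln1 over Vcan was 0.177, 0.206 and 0.182, a coefficient of 8.41% beside 15.2% for Hapln1 and 8.37% for Vcan. The pairs were chosen for this ratio after their values had been seen. A like pattern over the libraries was not particular to neighbours. The root mean square difference between genes in their deviations of log2(value + 1) was 0.084 for Acan with Hapln3. It was 0.097 for Hapln1 with Vcan. For genes on separate chromosomes it was lower in some cases, at 0.040 for Hapln1 with Has2 and 0.064 for Cd44 with Hyal1. The strand setting of the count is not given in the sources used here, and whether reads that run past the end of one gene entered its neighbour was not tested.

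**Figure D2:**
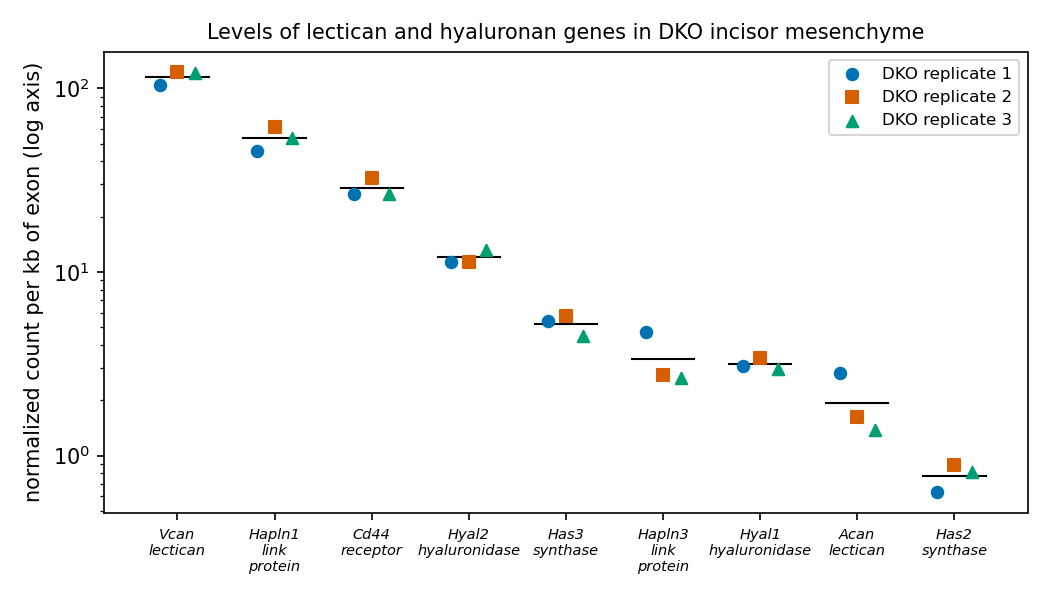
Normalized count per kilobase of exon (y axis, log scale) of the 9 genes in order of their mean, with 1 point per library and a bar at the mean of 3 libraries. Vcan sits between 104.6 and 121.8 and Has2, the lowest, between 0.632 and 0.888.

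Of the hyaluronan synthases, Has3 was the more abundant. Has3 (chromosome 8, 106870242 to 106884566, plus strand), which is known for making shorter chains than Has2, was at 34.5, 36.5 and 28.7 normalized counts (33.3 ± 4.03, SD, n = 3), lowest in replicate 3. Has2 (chromosome 15, 56665627 to 56694539, minus strand), the main synthase of embryonic mesenchyme, was at 2.68, 3.76 and 3.45 (3.30 ± 0.557, SD, n = 3), lowest in replicate 1. It was the only 1 of the 9 genes with a mean below 10. Per kilobase of exon, Has3 exceeded Has2 8.56-, 6.44- and 5.54-fold and made up 86.9% ± 2.44 (SD, n = 3) of the summed level of both. The within-library log2 difference, Has2 minus Has3, was -1.80 ± 0.19 (SD, n = 3), negative in 3 of 3 libraries (exact sign-flip permutation test, p = 0.25, adjusted p = 0.25).

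Both synthase genes overlap a gene on the opposite strand, which matters where strand was not used in counting. The 3′ part of Has3 shares 352 bases, 5.52% of its exon length, with Chtf8, a gene of sister chromatid cohesion that stood at 92.7, 79.6 and 83.9. Has2 shares 182 bases, 4.30%, with the antisense gene Has2os, which stood at 0.350, 0.275 and 0.373. The order of libraries differed between Has3 and Chtf8, with Chtf8 highest in replicate 1 and Has3 in replicate 2.

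Hyal2 exceeded Hyal1 among the hyaluronidases. Hyal2 (chromosome 9, 107567945 to 107572779, plus strand), a membrane-anchored enzyme, was at 37.4, 37.4 and 43.5 normalized counts (39.5 ± 3.52, SD, n = 3), highest in replicate 3. Hyal1 (107576927 to 107581710, plus strand), the lysosomal enzyme that starts 4147 bases further on, was at 11.5, 12.9 and 11.2 (11.9 ± 0.877, SD, n = 3) and had the smallest spread of the 9 genes by coefficient of variation, 7.38%. Per kilobase of exon, Hyal2 exceeded Hyal1 3.72-, 3.33- and 4.45-fold, and the within-library log2 difference, Hyal2 minus Hyal1, was 1.65 ± 0.18 (SD, n = 3; 3 of 3 libraries; exact sign-flip permutation test, p = 0.25, adjusted p = 0.25).

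The Hyal1 value is uncertain because it shares sequence. On the same strand, 1920 bases, 50.8% of its exon length, also belong to exons of Naa80, an acetyltransferase of actin, and 159 bases to Hyal3. Naa80 was at 12.7, 12.7 and 12.9. In units of the smallest value in each library, Acan, Has2, Has3, Hapln3 and Hyal2 were whole numbers to within 0.02 in all libraries, 5 of the 9 genes, with Has2 at 92, 137 and 148. Hyal1 was not, at 396.25, 468.58 and 481.59, and neither was Naa80, at 434.74, 461.42 and 554.76, while their sum came to 831.00 and 930.00 in replicates 1 and 2 and to 1036.35 in replicate 3. How the counter dealt with reads that fit both genes is not given in the sources used here. The summed normalized count of Hyal1 and Naa80 was 24.2, 25.5 and 24.1.

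Cd44 was the third most abundant of the genes per kilobase. This receptor (chromosome 2, 102811141 to 102901665, minus strand), whose variable exons are spliced in epithelia, was at 179, 221 and 180 normalized counts (193 ± 23.6, SD, n = 3), percentile 95.5 of all genes. Replicate 2 was highest and the other libraries were nearly equal. Of 9 dental epithelium markers 7 were also highest in replicate 2, as was their sum, while Shh (34.3, 33.1 and 0.885) was highest in replicate 1 and Enam (140.4, 241 and 246) in replicate 3. Highest in replicate 2 was also Esrp1, a splicing factor of epithelia, at 26.1, 35.8 and 17.1. Macrophages, which carry CD44 too, had 6 of 6 markers at a mean of at least 10, with a summed level of 756, 1030 and 1073, lowest in replicate 1. The part of these cells in the Cd44 value was not tested.

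In order of level per kilobase of exon, the genes ran Vcan (115.7 ± 9.69, SD, n = 3), Hapln1 (53.5 ± 8.15), Cd44 (28.5 ± 3.48), Hyal2 (11.98 ± 1.07), Has3 (5.21 ± 0.631), Hapln3 (3.37 ± 1.18), Hyal1 (3.14 ± 0.232), Acan (1.94 ± 0.771) and Has2 (0.778 ± 0.132). Libraries of neighbouring genes in this order did not overlap, except those of Has3 with Hapln3 and of Hapln3 with Hyal1. Has3 was above Hapln3 within 3 of 3 libraries, while Hapln3 was above Hyal1 in 1 of 3.

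Acan and Hapln3 varied most between libraries. Of the 8 genes with a mean of at least 10, these 2 had a highest library more than 1.5-fold above the lowest, 2.05-fold for Acan and 1.79-fold for Hapln3, and 6.15% of the 10388 genes at that level did so (7.81% of the 5967 genes with a mean from 10 to 50). Both were highest in replicate 1, and 2.86% of the 10388 genes passed this ratio with replicate 1 as the highest library. Replicate 1 was 1.88-fold above the mean of the other libraries for Acan and 1.76-fold for Hapln3. Without replicate 1 the ratio of highest to lowest was 1.18 for Acan and 1.04 for Hapln3, so their call rests on that library. The mean of Hapln3 without replicate 1 was 9.44, so it passed the limit of 10 only through the library where it was high. If the smallest value stands for 1 read, which was not settled, Acan had 723, 441 and 442 reads and a counting error of 3.72%, 4.76% and 4.76%, beside a coefficient of variation of 39.8%, which also holds the variation of preparation and tissue. For Has2 the counting error would be 10.4%, 8.54% and 8.22%, beside a coefficient of 16.9%.

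**Figure D3:**
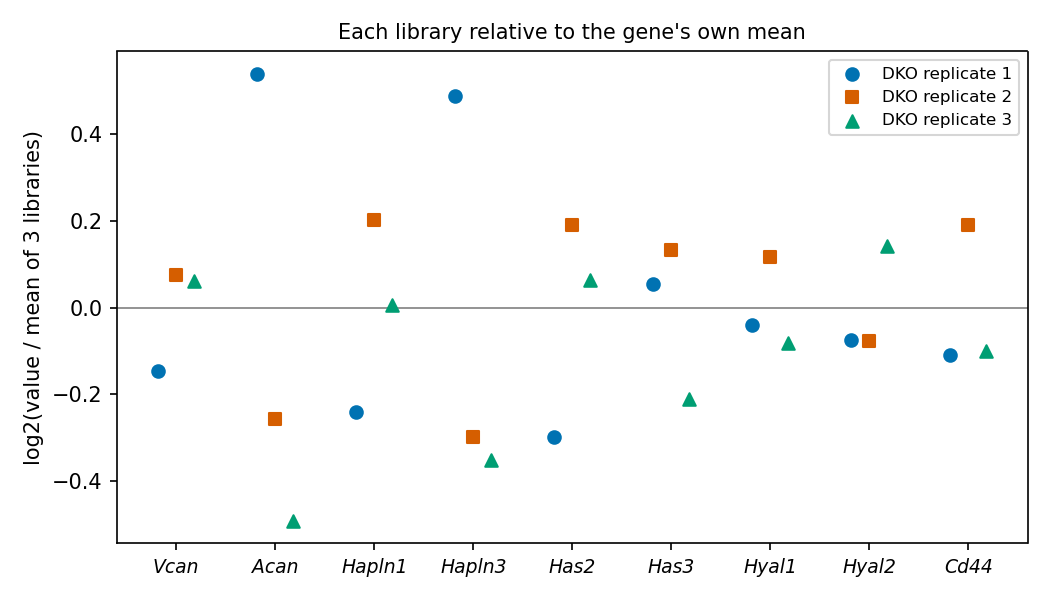
Log2 of each library's normalized count over the mean of 3 libraries (y axis) for the 9 genes (x axis), 1 point per library. Replicate 1 lies highest for Acan (0.54) and Hapln3 (0.49) and lowest for Vcan (-0.15), Hapln1 (-0.24), Has2 (-0.30) and Cd44 (-0.11).

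Of the other genes, all but Hyal2 were highest in replicate 2. Among the 8 genes above a mean of 10, replicate 2 was the highest library for 5 (Vcan, Hapln1, Has3, Hyal1 and Cd44), against 34.2% of all genes at that level. Acan and Hapln3, 2 of the 8, were highest in replicate 1, against 31.2%, and Hyal2 alone was highest in replicate 3, against 34.6%. The median ratio of highest to lowest library over the 8 genes was 1.25, against 1.15 over all 10388 genes. Replicates have no order, so these counts describe the libraries only.

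Replicate 1 also stood apart in other genes. The interferon response list was highest there in 8 of 8 genes, with a summed level of 1062, 197 and 201. Ribosomal RNA made up 7.39%, 5.11% and 4.77% of the total in replicates 1, 2 and 3, and mitochondrial genes 5.11%, 4.14% and 4.16%. Library composition thus differed too, and its part in the Acan and Hapln3 values was not tested beyond the rescaling given below. Cartilage genes, among which Acan is usually counted, went different ways. Of 8 listed 6 were found, 3 of them above a mean of 10, and the summed level was 668, 337 and 609. Most of this sum came from Col11a2 and Sox9 in each library, and the other genes found were all lowest in replicate 1. The highest gene of the list by mean, Col11a2, was at 422, 141 and 412. Sox9, a transcription factor of cartilage and of tooth mesenchyme, was at 224, 170 and 168 and thus highest in replicate 1. Col2a1, the collagen that defines cartilage, was at 3.23, 4.97 and 5.08 and Col9a1 at 16.3, 17.5 and 17.1, both lowest in replicate 1. The part of cartilage cells in the Acan and Hapln3 values was not tested. Among 2105 genes with a mean of at least 100, those whose log2 deviations over the 3 libraries lay nearest to those of Acan were Nebl, 6820431F20Rik, Rspo4, Trim25 and Arl4a, at root mean square distances of 0.080 to 0.106, and none was within 0.05.

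Most genes for hyaluronan precursors and for chondroitin sulfate were above a mean of 10, beside 10388 of the 19381 genes listed. Their median ratio of highest to lowest library was 1.14 for precursors and 1.19 for chondroitin sulfate. It was 1.15 over all 10388 genes at that level, so the lists were about as even as other genes. Of 11 genes of UDP-sugar synthesis, 9 had a mean of at least 10. None of these varied more than 1.5-fold, beside 6.15% of all genes at that level. Ugdh, which makes the UDP-glucuronate that both hyaluronan and chondroitin need, was at 185, 171 and 170, and Gfpt1, the entry enzyme of the hexosamine pathway, at 151, 149 and 153. Gpi1, an enzyme of glycolysis placed in the same list, was at 134, 140 and 142. The summed level of this list ranged only from 776 to 796. Of 28 genes of chondroitin sulfate chains found among 29 listed, 24 had a mean of at least 10. Impad1, a phosphatase of sulfate metabolism, led at 334, 326 and 297, followed by the dermatan sulfate epimerase-like gene Dsel at 127, 135 and 142 and the sulfate donor synthase Papss1 at 137, 127 and 126. Of these 24, the 1 gene above 1.5-fold was Chst3, a chondroitin 6-sulfotransferase, at 9.53, 10.9 and 14.4. The summed level, from 1565 to 1586, was nearly equal in the libraries.

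Replicate 3 was the highest library for several proteases that cleave lecticans and several matrix partners of lecticans, as it was for 34.6% of all genes above a mean of 10. Of 7 proteases, 4 had a mean of at least 10, and 3 of these were highest in replicate 3. Adamts9 was at 84.4, 101 and 143, Adamts4 at 10.7, 15.5 and 25.5 and Adamts1 at 36.9, 36.9 and 49.0. Adamts9 and Adamts4 thus varied more than 1.5-fold, while Adamts20 was at 78.4, 72.4 and 77.6. These enzymes cut versican and aggrecan in their core proteins. The partners had 7 of 7 genes at a mean of at least 10, 5 of them highest in replicate 3. Tnc, which binds the lectin domain of lecticans, was at 1610, 1715 and 1774, Fn1 at 1223, 1538 and 1750, the fibrillin Fbn1 at 828, 808 and 933 and Fbn2 at 297, 316 and 467. Of 7 endothelial and lymphatic markers, 6 were above a mean of 10 and 5 of these were highest in replicate 3, with a summed level of 319, 336 and 433. The exception was the lymphatic hyaluronan receptor Lyve1, at 35.8, 34.1 and 28.8. The part of these cells in the protease and partner values was not tested.

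Hyaluronan receptors and binding proteins besides Cd44 were led by Stab1. Of 13 found among 18 listed, 9 had a mean of at least 10. Stab1, a scavenger receptor of macrophages and sinus endothelium, was at 162, 244 and 295, lowest in replicate 1 as the macrophage list was. C1qbp, also known as a hyaluronan-binding protein, was at 66.1, 64.9 and 61.7 and Itih5, a heavy chain of the inter-alpha-trypsin inhibitor family, at 64.7, 48.8 and 58.4. Of the enzymes outside the hyaluronidase family, Cemip2, a cell-surface hyaluronan-degrading protein, was at 155, 168 and 134, and its relative Cemip at 12.6, 12.2 and 21.01. Hexa, a lysosomal hexosaminidase subunit, was at 98.4, 108 and 123. Cemip2 was highest in replicate 2, and Cemip and Hexa in replicate 3. Of 4 neural lecticans and link proteins listed, 2 were found and both had a mean below 10, with Bcan at 0.990, 1.24 and 1.72 and Hapln4 at 0.204, 0.165 and 0.0466.

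Cytoskeletal partners of CD44 were even across the libraries, while some other genes in the same list were not. Rdx, an ezrin-radixin-moesin protein that ties CD44 to actin, was at 387, 380 and 374, and Msn at 217, 202 and 213. Mmp14, a protease that cleaves CD44, was at 297, 297 and 347. Of 9 genes with a mean of at least 10, 4 varied more than 1.5-fold, beside 6.15% of all genes at that level. Besides Esrp1 these were Spp1, a CD44 ligand, at 48.8, 87.5 and 59.7, Mmp9 at 8.16, 20.5 and 22.5, and Cd74, the invariant chain of antigen-presenting cells, at 131, 78.4 and 124.

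**Figure D4:**
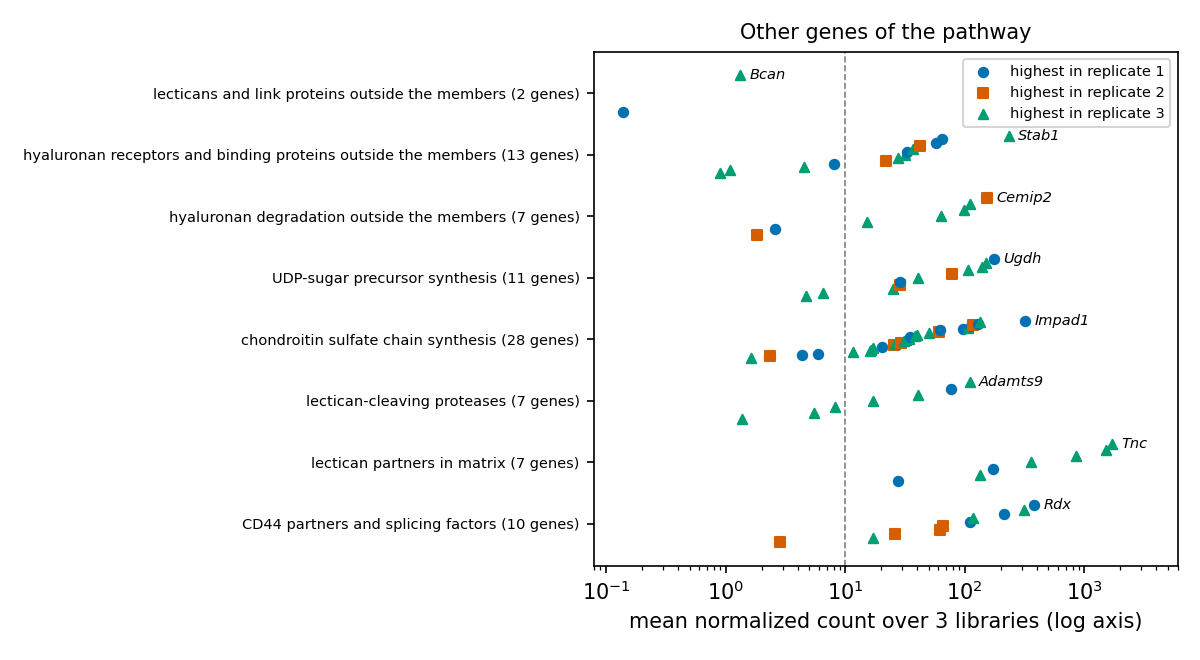
Mean normalized count over 3 libraries (x axis, log scale) of each gene in the 8 pathway lists (y axis), with colour and shape giving the library in which the gene was highest and the gene with the highest mean named. Tnc, at 1700, is the highest, and the dashed line marks a mean of 10.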

How the data were processed

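RNA-seq of 3 DKO libraries was analysed from a deposited table of normalized counts, taken as signal because the authors had scaled gene counts to a common upper quartile and did not divide them by gene length. Reads were aligned with TopHat2 2.0.8 to mm10, per the submitters' processing notes, and the counter, annotation, strand setting and filters were not given in the sources used here. Each column was assigned by the library number it shares with the labels. Of low values, 82.6%, 82.4% and 82.5% were within 0.1 of a whole multiple of the smallest value, too few to recover whole reads, and no count model was used. If the smallest value is 1 read, totals were 33863066, 34900647 and 41477624 reads, and the counting errors given leave out library preparation and PCR.

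Exon lengths are the union of exons in GENCODE M21, matched by symbol and position for 18752 of 19381 genes. Gene ends are those of this annotation, 1 base before the deposited end. Differences between genes used log2(level per kilobase + 1). The design named 5 differences, and the 1 with Has1 could not be made. The ratio rule (highest over lowest library above 1.5 at a mean of at least 10) was tested on simulated data. Named genes were all 9 measured members, the 3 highest of each pathway list, list genes above that ratio at a mean of at least 10, the 2 highest of each marker list and genes overlapping a member. The members, lists and rules were chosen with earlier results of these data known, and Col2a1, Col9a1 and the genes of the last part fall outside the rule and were picked with their values in view. Marker lists not described above were led by Krt5 (180, 253 and 162) and Enam (140.4, 241 and 246) for epithelium, Dspp and Col1a1 for odontoblasts, Bglap (363, 104.5 and 394) and Alpl (275, 181 and 253) for bone, Rgs5 (515, 477 and 570) and Pdgfrb (148, 126 and 155) for mural cells and Ptprc (53.7, 67.6 and 65.2) for blood cells. Some list genes are not reported here by name. Analysis used Python 3.11.15, numpy 2.4.6 and pandas 2.3.3. Alternatives covered scaling, pseudocount, filter, gene length and leaving out each library.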

Additional observations from a re-analysis of the deposited data

How the results depend on the processing

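Rescaling libraries to equal totals, with or without ribosomal RNA and mitochondrial genes, shifted the means of the 9 genes by -0.34% to 0.23%. Leaving out 1 of 3 libraries cannot move a mean by 1 SD and is no check of the levels. Each within-library difference had the same sign in all 3 libraries, so leaving out a library or changing the pseudocount could not reverse it. Only a change of gene length could. The 4 within-library differences kept their sign in 7 of 7 alternatives each. They ranged from 3.40 to 6.81 for Vcan minus Acan, from 2.24 to 4.66 for Hapln1 minus Hapln3, from 0.74 to 1.90 for Hyal2 minus Hyal1 and from -3.00 to -0.50 for Has2 minus Has3, where a pseudocount of 10 gave the smallest difference by its construction. The use of the longest transcript as length was chosen after seeing the data, as were rescaling without ribosomal RNA for the ratio count and the background over means from 10 to 50. The 2 genes above a ratio of 1.5 (Acan and Hapln3) became 0 at a mean of at least 100, which neither reaches, and 0 to 2 with a library left out, the 0 without replicate 1. The 8 genes at a mean of at least 10 became 3 at a mean of at least 100 and 9 at a mean of at least 1. With a pseudocount of 10 the SD of log2 fell below its main value by more than 1.5-fold for 4 genes, Acan, Has2, Hapln3 and Hyal1. No paired analysis was possible because the labels give 1 group. Depth limits statements on Has2 and on genes with values near 1.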

Other observations

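Hyal4, a relative of the hyaluronidases known for cutting chondroitin sulfate, was at 4.05, 0.769 and 3.00 normalized counts, which is 139, 28 and 129 times the smallest value in each library. It was lowest in replicate 2, 5.26-fold below the highest library. The odontoblast list was also lowest there, with a summed level of 15648, 6172 and 17902, 5 of 6 genes at a mean of at least 10, and Dspp, the dentin matrix gene, at 4959, 1072 and 3489. Most of this sum came from Col1a1 and Dspp. Sp7 alone in the list was not lowest in replicate 2, at 187, 182 and 176. The bone list had its lowest sum there too (950, 612 and 1057), although Ibsp, Spp1 and Runx2 were lowest in replicate 1. Hyal4 was chosen after its values were seen, and the part of odontoblasts or bone cells in its value was not tested.

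An antisense gene that overlaps Vcan and another that overlaps Hyal2, neither sharing an exon with them, were highest in replicate 1, as Acan and Hapln3 were. Gm4117, opposite Vcan, was at 4.37, 2.99 and 3.07, and Gm9917, opposite Hyal2, at 4.72, 3.32 and 2.63, while Vcan was lowest in replicate 1. The pseudogene Gm8546, which lies opposite Hapln1 and shares no exon with it, was at 0.568, 0.960 and 0.903, lowest in replicate 1.

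Stab2, an endocytic hyaluronan receptor of sinus endothelium, was at 0.320, 1.43 and 1.49, lowest in replicate 1 like Stab1. These values are 11, 52 and 64 times the smallest value in each library.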
